A study of Mus musculus with 125 samples.

Results

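The clustered protocadherins are cell-surface adhesion proteins of the cadherin superfamily, best known for giving single neurons distinct surface identities. Their genes stand side by side in an alpha, a beta and a gamma cluster. In the alpha and gamma clusters many variable first exons, each with a promoter of its own, splice to shared constant exons, and the last few, the C-type isoforms such as Pcdhac1, Pcdhac2, Pcdhgc3, Pcdhgc4 and Pcdhgc5, are regulated apart from the variable ones. Beta genes are single-exon genes. A neuron opens only some variable promoters, with CTCF and cohesin looping them to enhancers, while SMCHD1 and DNA methylation keep others silent. Other cell types are known to use these genes little, so the chromatin accessibility of the locus in leukaemia cells is described here.

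The locus comprised every consensus peak on mouse chromosome 18 whose centre lay between 36930000 and 37850000 (GRCm38), which gave 115 of the 256400 consensus peaks. It was selected on measured values, because the peak at Pcdhac1, Interval_120135 (37088410 to 37091103), was much lower in lines A and B after long co-culture with NK cells. That contrast, and those built from the same libraries at the second time point, are therefore given for these peaks as descriptions without p-values, as is any effect at Pcdhac1 itself measured against the A/B alone libraries. By GENCODE M21, the alpha cluster ran from 36930184 to 37187661 with 14 gene models, the beta cluster from 37264938 to 37524479 with 22, and the gamma cluster from 37661793 to 37841873 with 22. The alpha cluster held 23 peaks, the beta cluster 28 and the gamma cluster 52. A further 2 lay between alpha and beta, 8 between beta and gamma, where Slc25a2 (a mitochondrial carrier) and Taf7 (a subunit of the general transcription factor TFIID) stand, and 2 beyond gamma in Diaph1, which encodes a formin that nucleates actin. At the proximal boundary the last peak outside (Interval_120114) had a mean of 1.35 CPM and the first inside (Interval_120115) 1.34 CPM. At the distal boundary the last peak inside (Interval_120229) had 3.65 CPM and the next one outside (Interval_120230) 6.88 CPM.

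The data were ATAC-seq read-pair counts, which measure open chromatin through Tn5 transposase insertion, in 125 libraries of leukaemia cells from mice, a B-cell acute lymphoblastic leukaemia (B-ALL). The cells were C57BL/6 bone marrow transformed by retroviral BCR/ABLp185, tagged with a lentiviral barcode and GFP, and sorted as GFP+ cells before the assay. Lines A and B (A/B) came from the same parental line, and lines C and D (C/D) from another, so each pair shares a founder culture. B-ALL alone was harvested at the earlier time point, B-ALL + NK (NK_TP1) at the same time and B-ALL + NK (NK_TP2) later, at days 4 and 10 in experiments 9.5, 9.5.1, 9.6 and 9.6.1 and at days 6 and 16 in 9.7 per the labels, whereas the study's methods give a later range of days for the second harvest. The NK cells were primary splenic cells of wild-type mice grown in IL-2 and added in equal number to the B-ALL cells, and every culture, controls included, contained human IL-2. A/B formed 6 combinations of line and experiment, C/D formed 8 with the repeats 9.5.1 (line C) and 9.6.1 (line D), and each combination had 3 arms. Of the 42 groups 41 had 3 libraries and 1 had 2. According to the study, tumour cells were sorted at the first harvest, re-plated and given fresh NK cells before the later one. B-ALL alone was sampled at the earlier time point only. Longer culture, the sort and re-plating, and NK exposure therefore cannot be told apart at NK_TP2. The methods describe biological replicates, the labels only number them, and p-values measure the spread between these libraries.

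Libraries held 3083547 to 13580746 counts in peaks. The unit of level is CPM, a peak's count per 1000000 counts of the library's TMM-scaled total over the tested peaks. The C 9.5 NK_TP2 replicates 2 and 3 and the C 9.5.1 alone replicates 2 and 3 differed by less than sampling noise and were each averaged and counted as 1 sample, leaving 123 samples. The summed level of the 115 peaks was 117 to 343 CPM in 122 samples and 455 CPM in D 9.6 NK_TP2 replicate 2, of which 313 CPM came from untested peaks, and results for C/D at NK_TP2 are given with and without that library. The 3 lowest sums, 117 to 149 CPM, were the B 9.7 NK_TP2 samples. All 10 B-cell markers had a consensus peak near their start. Their summed level had a lowest, median and highest sample of 543, 710 and 969 CPM in A/B alone, 471, 629 and 706 CPM at NK_TP1 and 445, 696 and 848 CPM at NK_TP2, and in C/D it was 464, 579 and 752 CPM, then 442, 604 and 796 CPM, then 421, 646 and 902 CPM. For NK-cell markers, 11 of 15 had a peak, the defining receptor gene Ncr1 had none, and the summed level was 60.7 to 83.1 CPM in A/B alone, 63.3 to 93.5 CPM at NK_TP1 and 59.7 to 85.9 CPM at NK_TP2, with medians of 72.7, 81.4 and 76.5 CPM. In C/D it was 62.8 to 80.7, 58.6 to 83.3 and 55.4 to 116 CPM, the last maximum being the same D library. Their part in the results below was not tested.

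Most of the locus was closed. Of the 115 peaks, 91 had a mean under 2 CPM, 53 were called as a broad peak in only 1 or 2 libraries, and 2, at Taf7 and Pcdhgc3, were called in all 125. A peak was tested in a pair of lines where at least 1 of that pair's groups had a broad peak in every replicate, which left 12 in A/B, 16 in C/D and 18 in either. Of the 18, 2 lay in alpha, 4 in beta, 10 in gamma, 1 between beta and gamma and 1 beyond gamma. The centre of 10 lay in a coding exon, of 5 in an intron and of 3 in a UTR. The 97 untested peaks had means of 0.155 to 3.88 CPM, with a median of 1.03 CPM. Tested members had a median of 4.68 CPM against 8.63 CPM over all tested peaks of the genome. Among the 58 clustered start sites, 27 had a consensus peak within 1 kb and 11 a tested one, namely Pcdha8 and Pcdhac1 in alpha, Pcdhb16 and Pcdhb21 in beta, and Pcdhga1, Pcdhga6, Pcdhgb5, Pcdhgb6, Pcdhgb8, Pcdhgc3 and Pcdhgc4 in gamma. Variable exons resemble each other in sequence, so reads of near-identical copies may be split or lost among them, and their peaks are uncertain to that extent.

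**Figure D1:**
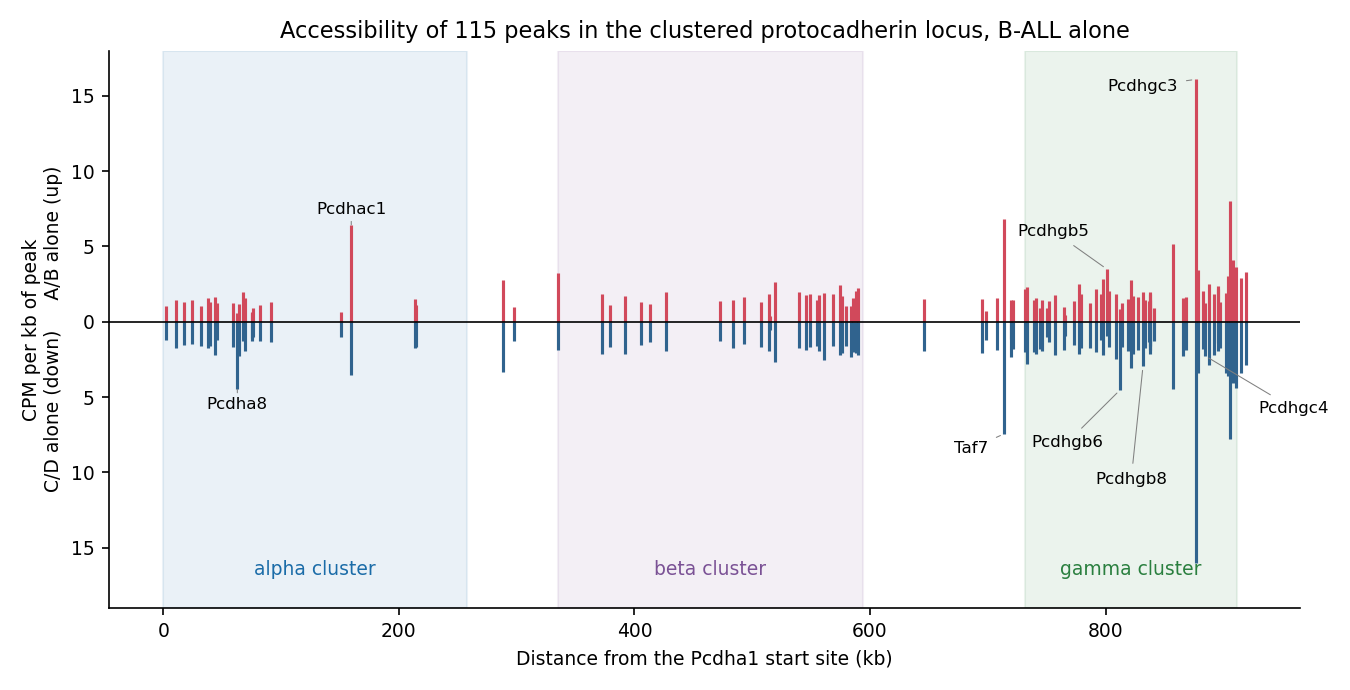
Mean accessibility of the 115 peaks in B-ALL alone, in CPM per kb of peak length, along the locus in kb from the Pcdha1 start, with A/B drawn upwards and C/D downwards and the extent of each cluster marked. Most peaks lie close to 0, Pcdhgc3 is the highest, and Pcdha8 and Pcdhgb6 are visible in C/D but hardly in A/B.

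Per kb of peak length, the highest mean level over all samples was at Pcdhgc3 (Interval_120214, 37805870 to 37807840), with 15.8 CPM per kb. It was followed by Interval_120225 (37835199 to 37836450, 16170 bases past the Pcdhgc5 start), with 8.16 CPM per kb, and Taf7 (Interval_120172, 37643211 to 37645028), with 7.11 CPM per kb. A peak with its centre at -19092 bases from the Pcdhgc3 start (Interval_120211, 37785833 to 37788711), in introns of upstream gamma models, had 4.92 CPM per kb, and Pcdhac1 had 4.26 CPM per kb. The remaining tested members had 1.77 to 4.04 CPM per kb, so Pcdhgc3 stood above every tested variable promoter.

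Pcdhgc3 had nearly the same level in every line. In B-ALL alone its lowest, median and highest sample were 23.4, 32.3 and 41.4 CPM in A/B and 23.8, 31.6 and 38.8 CPM in C/D, and the ranges overlapped almost wholly. The line means were 31.9 CPM in A, 31.5 in B, 32.0 in C and 31.0 in D, and the A/B to C/D difference was -0.02 on the log2 scale. Pcdhac1 was the opposite case, with a level that differed between sister lines.

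The Pcdhac1 peak contains the start site of the alpha C-type isoform 1 at 37090013, its centre lies at -257 bases from that start, and it falls within introns of 11 models of upstream alpha genes. In B-ALL alone, the lowest, median and highest sample were 17.4, 22.0 and 28.9 CPM in line A and 5.17, 12.6 and 19.5 CPM in line B. They were 7.70, 13.1 and 17.1 CPM in line C and 2.74, 5.38 and 8.83 CPM in line D. Line A was highest and line D lowest, with no overlap between those 2 lines, while B and C overlapped. Over all experiments the sister lines overlapped too, A with B and C with D. A exceeded B by 0.87 ± 0.16 (SE, log2 scale), a description, because it rests on the A/B alone libraries that chose the locus. It was the only 1 of 15 tested members to pass the call thresholds in that comparison, where 1.09% of all tested peaks were called. C exceeded D by 1.25 ± 0.18 (edgeR quasi-likelihood test, adjusted p = 1.54e-05), again the only 1 of 15, against a background of 1.13% called. Here and below, called means an adjusted p of at most 0.05 and a log2 difference of at least 0.58 in size. Interval_120211 had -0.37 between C and D (adjusted p = 0.049), short of the fold threshold. The ratio of A to B was 3.10 in experiment 9.5, 1.30 in 9.6 and 1.82 in 9.7, and that of C to D was 4.03, 1.48 and 2.17, so the direction held within each experiment while the size did not stay the same.

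Between the pairs cultured alone, 6 of 15 tested members were called (15.4% of all tested peaks were). This comparison sets a single parental line against another. Its p-values, here and below, thus measure spread between libraries and not between founder cultures. Pcdha8 (Interval_120125, 36992258 to 36993813), a variable alpha promoter, had 0.00, 0.862 and 2.29 CPM as lowest, median and highest in A/B and 4.85, 6.59 and 10.7 CPM in C/D. The pairs did not overlap, and the peak was called as broad in 0 of 18 A/B and 23 of 23 C/D libraries. The difference was -2.91 ± 0.16. Pcdhgb6 (Interval_120198, 37741422 to 37743226), a variable gamma promoter, had 0.265, 1.72 and 2.33 CPM in A/B and 5.51, 8.16 and 11.4 CPM in C/D. Again no sample overlapped, and the difference was -2.46 ± 0.12. Pcdhgb5 (Interval_120195, 37730632 to 37731847), a neighbouring variable promoter, went the other way. It had 1.59, 4.51 and 7.39 CPM in A/B and 0.360, 1.07 and 2.18 CPM in C/D, ranges that overlapped slightly, with a difference of 1.88 ± 0.16. Pcdha8, Pcdhgb6 and Pcdhgc4 met the filter only through C/D groups and Pcdhgb5 only through A/B groups, so each entered through the pair where it was high. Their differences between the pairs are therefore descriptions without p-values, and their count is no support for a pattern.

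Pcdhgc4 (Interval_120217, 37813151 to 37816300), a C-type gamma isoform, had 1.36, 3.13 and 6.44 CPM in A/B and 2.53, 7.19 and 10.9 CPM in C/D. These ranges overlapped, with a difference of -0.93 ± 0.14, a description as stated above. Pcdhgb8 (Interval_120204, 37761103 to 37762761) had 1.67, 3.47 and 4.96 CPM against 2.82, 4.94 and 6.66 CPM, with a difference of -0.61 ± 0.11 (edgeR, adjusted p = 3.27e-06). That call was lost without the broad-peak filter (-0.48) and without replicate 1 (-0.44). Pcdhgb8 and Pcdhac1 met the filter in both pairs. Pcdhac1 was higher in A/B by 0.93 ± 0.12, a description, because it rests on the A/B alone libraries that chose the locus, and line B at 12.5 CPM lay below line C at 13.4 CPM. Of the other C-type promoters, Pcdhac2 (Interval_120136, 37143387 to 37144786) was low. It had means of 2.09 ± 0.609 CPM in A/B alone (SD over 6 combinations) and 2.40 ± 0.747 CPM in C/D alone (8 combinations). No consensus peak lay within 1 kb of the Pcdhgc5 start. Interval_120219, with the highest level of the untested peaks, had 3.42 ± 0.455 and 4.10 ± 0.852 CPM. Pcdhac2 and Interval_120219 were named after their values were seen, as was Slc25a2 (Interval_120171) with 2.10 ± 0.872 and 2.49 ± 0.832 CPM.

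**Figure D2:**
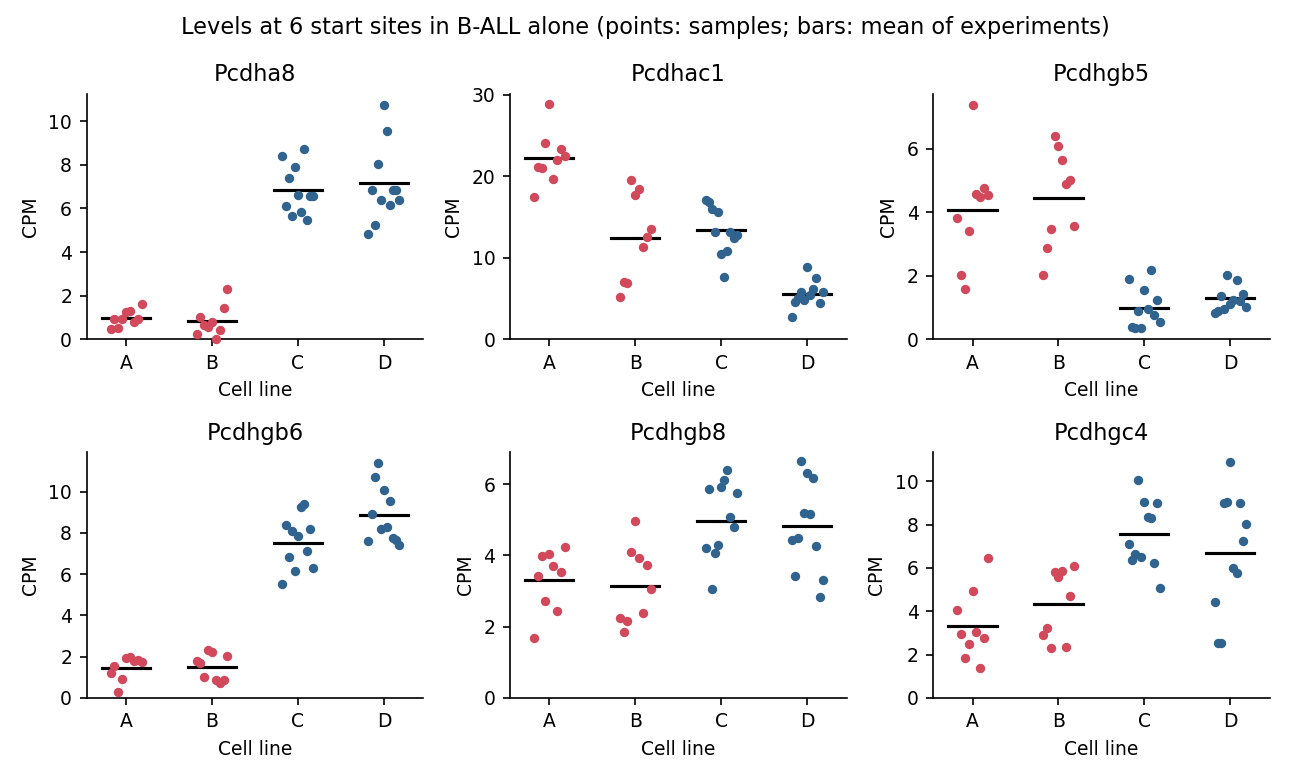
CPM per sample in B-ALL alone for lines A, B, C and D at 6 start-site peaks of the locus, with 1 point per sample and a bar at each line's mean. Pcdha8 and Pcdhgb6 sit near 0 in A and B and between 4.85 and 11.4 CPM in C and D, Pcdhgb5 is the reverse with overlap, and Pcdhac1 differs between sister lines.

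With NK cells, Pcdhac1 was lower at NK_TP1 than alone in A/B and lower again at NK_TP2. In line A the lowest, median and highest sample were 17.4, 22.0 and 28.9 CPM alone, 13, 18.3 and 23.8 CPM at NK_TP1 and 3.19, 6.05 and 8.63 CPM at NK_TP2. In line B they were 5.17, 12.6 and 19.5 CPM, then 4.23, 7.52 and 15.4 CPM, then 1.97, 2.95 and 6.63 CPM. A broad peak was called in 9 of 9 libraries alone in both lines, and at NK_TP2 in 6 of 9 of line A and 0 of 9 of line B. Means over the 6 A/B combinations went from 17.4 ± 6.73 CPM to 13.8 ± 6.48 and 4.94 ± 2.00 CPM (SD). For line B in 9.7, the samples of Interval_120135 were 11.3, 12.6 and 13.5 CPM alone, 9.71, 7.04 and 7.52 CPM at NK_TP1 and 2.15, 1.97 and 2.93 CPM at NK_TP2, and the 3 arms did not overlap. For line A in 9.6 the same values were 24.1, 28.9 and 19.6 CPM, then 23.8, 22.3 and 22.9 CPM, then 3.19, 6.05 and 6.17 CPM, with the loss falling between the co-culture time points. In line B of 9.7 the summed level of the locus was also lower, at 168, 235 and 254 CPM alone and 149, 117 and 143 CPM at NK_TP2. Ratios of NK_TP2 to alone there were 0.19 at Pcdhac1, 0.27 at Pcdhac2 and Pcdhgc4 and 0.33 at Pcdha8. Other peaks there had 0.70 (Pcdhgb8), 0.88 (Pcdhgc3), 1.04 (Taf7) and 1.17 (Pcdhgb5).

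NK_TP2 lay below alone without overlap in 6 of 6 combinations, at ratios of 0.189 to 0.467. Because that contrast chose the locus, the fitted difference is a description, and it was -1.84 ± 0.10 on the log2 scale. It was -1.27 within experiment 9.5, -1.85 within 9.6 and -2.2 within 9.7, and -1.86 in A and -1.79 in B. Against NK_TP1 it was -1.45 ± 0.10. At NK_TP1 itself, Pcdhac1 had a value of -0.38 ± 0.08, lower in 6 of 6 combinations with ratios of 0.649 to 0.951 and without overlap in 3. That is short of the fold threshold, and it too is a description, because its alone libraries are those that chose the locus. Within experiments it was -0.21, -0.26 and -0.57. In the same comparisons the 10 B-cell markers had a median of -0.31 at NK_TP1 and -0.18 at NK_TP2 in A/B. All tested peaks had -0.02 in both. In each, 8 of 10 markers were at an unadjusted p under 0.05, with 0 called by edgeR or DESeq2. Counts at an unadjusted p under 0.05, here and below, come without the share over all tested peaks. They are therefore no support for a change in a list or in the members. In C/D the 9 tested B-cell markers had medians of 0.02 at NK_TP1 and 0.08 at NK_TP2, with 0 and 2 at an unadjusted p under 0.05. Over the 8 tested NK-cell markers the A/B medians were 0.17 and -0.05. The part of either list in the Pcdhac1 values was not tested.

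In C/D the same peak was not lower at NK_TP2. Line C had 7.70, 13.1 and 17.1 CPM alone, 11.6, 16.6 and 22.4 CPM at NK_TP1 and 10.1, 17.2 and 20.7 CPM at NK_TP2. Line D had 2.74, 5.38 and 8.83 CPM, then 3.18, 5.36 and 9.82 CPM, then 3.64, 8.03 and 15.1 CPM. Over the experiments of a line, the arms overlapped in both lines. NK_TP2 was above alone in 8 of 8 combinations, at ratios of 1.01 to 1.87, without overlap in 4. The difference was 0.46 ± 0.08 (edgeR, adjusted p = 4e-06), below the fold threshold, so it was not called. Without D 9.6 NK_TP2 replicate 2, an alternative chosen after seeing the data, it was 0.42 (adjusted p = 1.54e-05). Within 9.5, 9.5.1, 9.6, 9.6.1 and 9.7 it was 0.10, 0.43, 0.76, 0.04 and 0.52. At NK_TP1 the value was 0.21 (adjusted p = 0.0622), and NK_TP2 exceeded NK_TP1 by 0.26 ± 0.07 (adjusted p = 0.00791). The A/B effect minus the C/D effect was -0.58 ± 0.11 at NK_TP1 and -2.30 ± 0.12 at NK_TP2, both descriptions, because both rest on the A/B alone libraries that chose the locus.

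**Figure D3:**
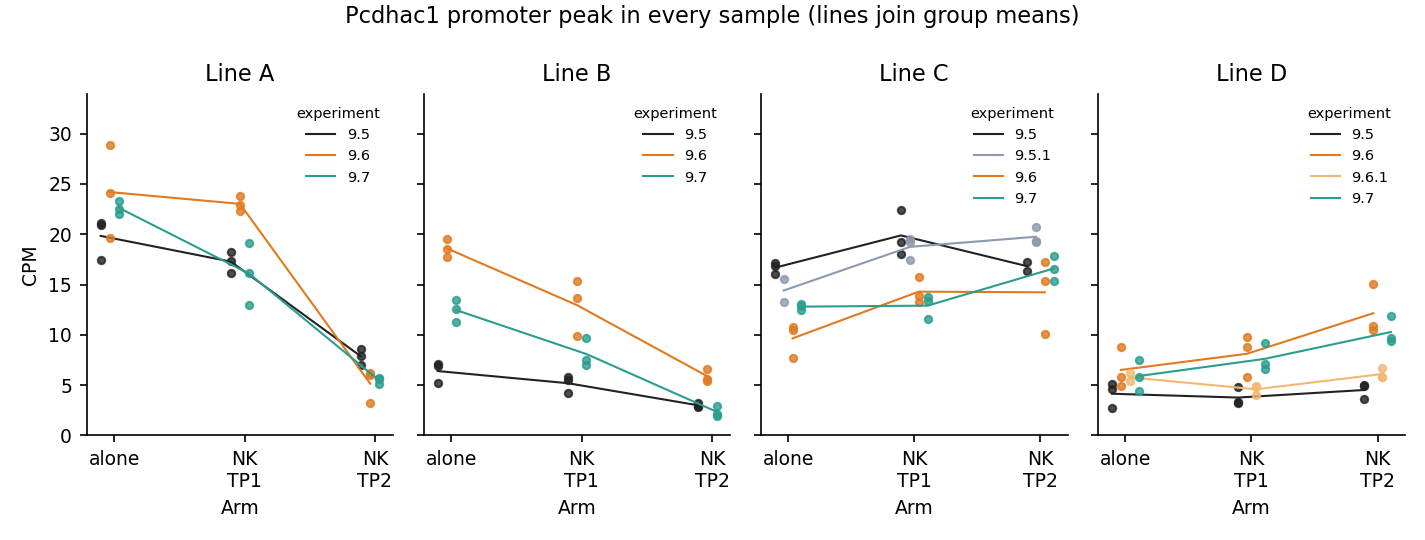
CPM of the Pcdhac1 peak per sample in lines A, B, C and D, by experiment and arm (alone, NK_TP1, NK_TP2), with 1 point per sample. In A and B every NK_TP2 point is at or below 8.63 CPM and below its own alone samples, and in C and D the NK_TP2 points lie above their own alone samples without overlap in 4 of 8 combinations.

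The low level at NK_TP2 in A/B was seen at Pcdhac1 and at none of the other 11 members tested there. Of 12 tested there, 2 were past the call thresholds (6.41% of all tested peaks were), Pcdhac1 and, in the opposite direction, Pcdhgb5 at 0.69. The other 10 had values between -0.23 and 0.37, among them -0.12 at Pcdhgc3, -0.01 at Interval_120211 and 0.07 at Interval_120225. Against NK_TP1, 1 of 12 was past them (background 1.6%), Pcdhac1. The nearest tested peak of the alpha cluster, Pcdha8, was not tested in A/B, and Pcdhac2 had untested means of 2.09, 2.43 and 2.79 CPM in the 3 arms. The median over the 12 members was 0.02 against -0.02 over all tested peaks.

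Pcdhgb5 had means of 4.25 ± 1.38 CPM alone, 5.65 ± 1.68 at NK_TP1 and 6.91 ± 2.35 at NK_TP2 in A/B (SD, 6 combinations). Line A accounted for most of it. In line A the samples of Interval_120195 were 3.82, 2.02 and 1.59 CPM alone and 7.77, 9.59 and 6.62 CPM at NK_TP2 in 9.5, 3.41, 7.39 and 4.58 against 7.71, 12.5 and 9.08 CPM in 9.6, and 4.48, 4.76 and 4.54 against 8.05, 9.58 and 8.09 CPM in 9.7, with no overlap in any. Ratios were 1.87 to 3.23 in line A and 1.08 to 1.20 in line B, where arms overlapped. C/D had 1.13, 0.861 and 0.901 CPM in the 3 arms and no broad peak in any library. At NK_TP1 the A/B value was 0.39 ± 0.13 (edgeR, adjusted p = 0.0086). It differed from C/D by 0.79 ± 0.24, past the call thresholds but a description, because the peak passed the filter only through A/B. That call was lost with any 1 replicate left out (0.72 to 0.76) and without the broad-peak filter (0.67).

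At NK_TP1 no member was called, 0 of 12 in A/B (7.9% of all tested peaks were called) and 0 of 16 in C/D (1.82%), by edgeR as by DESeq2. At an unadjusted p under 0.05 there were 5 and 2 members, Pcdhac1 among both, though in A/B only as a description. Taf7 in A/B had 5.96, 11.6 and 24.3 CPM alone and 9.44, 14.6 and 27.7 CPM at NK_TP1, overlapping, with a value of 0.38 ± 0.10 (edgeR, adjusted p = 0.00089), higher in 6 of 6 combinations. Pcdhga6 had 0.35 (adjusted p = 0.00624) and Pcdhb16 0.32 (adjusted p = 0.0163), both short of the fold threshold. The difference between the pairs at NK_TP1 was past the call thresholds for 2 of 18 members (background 3.86%), Pcdhac1, which is a description and fell short without replicate 2 (-0.49), and Pcdhgb5, with the limits given above. The median A/B value over 12 members was 0.04 against -0.02 over all tested peaks, and in C/D it was 0.03 over 16 members against -0.01.

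At NK_TP2 in C/D, 0 of 16 members were called against alone (2.75% of all tested peaks were) and 0 of 16 against NK_TP1 (0.629%), by edgeR as by DESeq2, with 7 and 8 at an unadjusted p under 0.05. Taf7 came closest. It had 7.26, 12.7 and 21.1 CPM alone, 7.11, 13.7 and 18.8 CPM at NK_TP1 and 6.00, 9.37 and 14.5 CPM at NK_TP2, with overlap. The value was -0.52 ± 0.09 (edgeR, adjusted p = 1.04e-05), lower in 8 of 8 combinations, and -0.54 ± 0.09 against NK_TP1 (adjusted p = 1.42e-05). Within experiments it was -0.30 to -0.98 against NK_TP1. Pcdhgb6 had 5.51, 8.16 and 11.4 CPM alone and 3.96, 6.55 and 10.3 CPM at NK_TP2, overlapping, with a value of -0.34 ± 0.07 (adjusted p = 0.000214), lower in 8 of 8 combinations. Pcdhgc3 had -0.16 (adjusted p = 0.0123), and Interval_120211 0.18 (adjusted p = 0.0199). Pcdhb21 had -0.51 against NK_TP1, a description at a low level. It met the filter through 2 of 24 C/D groups and 0 of 8 C/D alone groups, so through NK groups only. The median over 16 members was -0.04 against 0.01 over all tested peaks. Without D 9.6 NK_TP2 replicate 2, Taf7 had -0.49 and Pcdhgb6 -0.35 against alone, and again 0 of 16 were called. The pairs differed at NK_TP2 past the thresholds at 3 of 18 members (4.58% of all tested peaks), Pcdhac1, Pcdhgb5 (1.04) and Pcdhgb6 (0.81), as descriptions.

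No beta peak and none of the remaining gamma peaks was called in any comparison. Pcdhb16 (Interval_120156, 37477456 to 37480192), the most accessible beta start site, had means of 4.97 ± 1.60, 6.30 ± 0.948 and 6.08 ± 1.75 CPM in A/B alone, NK_TP1 and NK_TP2 (SD, 6 combinations) and 4.53 ± 1.19, 4.40 ± 0.875 and 4.88 ± 1.78 CPM in C/D (8 combinations). Pcdhb21 (Interval_120164, 37513529 to 37514372) had 1.97 ± 0.839, 2.26 ± 0.524 and 1.54 ± 0.402 CPM in C/D and at most 1.07 CPM as a mean of any A/B arm, where it was not tested. The peaks at Pcdhb13 and Pcdhb14 lay in the coding exon, with centres 1730 and 1944 bases past the start, and their arm means were 1.29 to 2.68 CPM. At the head of the gamma cluster, Pcdhga1 (Interval_120176, 37660687 to 37663117) had 5.36 ± 1.45 CPM in A/B alone and 4.91 ± 0.983 CPM in C/D alone, and -0.23 and -0.01 at NK_TP2. Pcdhga6 (Interval_120189, 37706719 to 37708007) had 3.20 ± 0.963 and 2.74 ± 0.641 CPM alone, and 0.37 and 0.03 at NK_TP2. In the 3′ UTR shared by gamma transcripts, Interval_120227 had 3.87 ± 0.338 and 4.65 ± 0.588 CPM alone, and no tested comparison reached an adjusted p of 0.05. Of the 97 untested peaks, the one with broad peaks in the most libraries had them in 17.

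**Figure D4:**
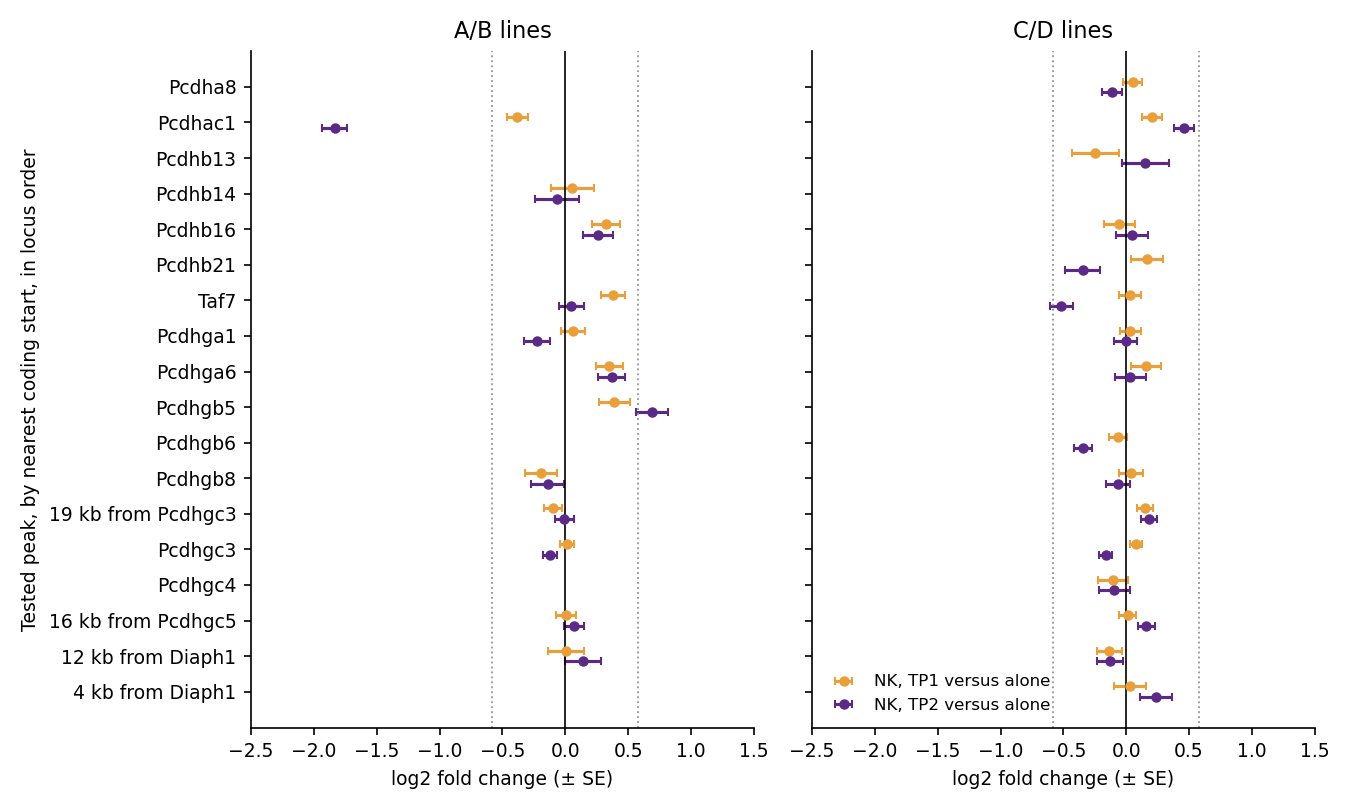
Log2 fold changes with SE of the tested members against B-ALL alone at NK_TP1 and NK_TP2, in a panel for A/B and another for C/D, in order along the chromosome. Pcdhac1 at -1.84 in A/B is the lowest point, Pcdhgb5 at 0.69 is highest, and members in C/D lie between -0.52 and 0.46.

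Likeness to Pcdhac1 was Pearson's r on log2(CPM + 1) over the 42 group means, after subtracting the mean of each combination of line and experiment. It thus compares changes between arms and not levels between lines. No other named member followed Pcdhac1, with r between -0.58 (Pcdhgb5) and 0.19 (Pcdhgc3). Among 45562 tested peaks of the genome, the 5 most like it, at r = 0.88 to 0.92, were all on chromosome 7. These groups share lines and experiments, so r is a description. The fold changes below are descriptions too, because r picked these peaks over the same groups. Of those, 4 lay near Lrrc27, Gm32486, Pwwp2b and Cfap46 between 139223723 and 139685241, and 1 near Itpripl2 at 118490274 to 118492695. Their values in A/B at NK_TP2 against alone were -1.12, -1.04, -0.87, -1.46 and -0.84, in that order, and 0.16, 0.26, -0.04, -0.06 and 0.18 in C/D.

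In a 1 kb window around the centre, tested members had a median ratio of observed to expected CpG of 0.497 against 0.223 for all tested peaks and 0.425 for tested peaks within 3 kb of a start. A match to the CTCF core consensus on either strand was present in 2 of 18 tested members (11.1%) and 11 of 115 members (9.57%), against 5.49% of all tested peaks. Pcdha8 held a match and Pcdhac1 did not, which is a statement about letters only.

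Of 29 known regulators of clustered protocadherin promoter choice and silencing, 23 had a tested start-site peak. With NK cells 0 were called at NK_TP2 in A/B (6.41% of all tested peaks were) and 0 in C/D (2.75%), by edgeR as by DESeq2, with 10 in A/B and 18 in C/D at an unadjusted p under 0.05. Their medians were -0.09 and -0.14, against -0.02 and 0.01 over all tested peaks. Among them were Ctcf, with values of -0.10 for A/B and -0.13 for C/D, and Smchd1 (-0.10 and -0.16), which encodes a chromatin silencer of the locus. Between the pairs alone, 1 of 23 was called (background 15.4%), Lrif1 at -1.07 (edgeR, adjusted p = 1.25e-13), whose product binds SMCHD1. Of 12 non-clustered protocadherins, 6 were tested in C/D at NK_TP2 and 1 fell (background 2.75%), Pcdh17 at -0.72 (adjusted p = 2.74e-06). In A/B 0 of 5 were called (6.41%), by DESeq2 as well, with 2 at an unadjusted p under 0.05. Among binding partners and downstream genes, Marcks, which encodes an actin-linked kinase substrate, fell in C/D at NK_TP2, 1 of 13 tested (background 2.75%), with a log2 value of -0.66 (adjusted p = 4.63e-09). Of 4 classical cadherins and calsyntenins tested in A/B, 1 was called at NK_TP2 (background 6.41%), Cdh5 at -0.72 (edgeR, adjusted p = 1.06e-07). Between the pairs alone (background 15.4%), 2 of 5 non-clustered protocadherins, 2 of 4 of these cadherins and 1 of 12 partner genes were called lower in A/B. None was called higher. Between sister lines alone, 1 of 5 non-clustered protocadherins was lower in A (background 1.09%) and 1 of 12 partner genes higher in C (1.13%). Of 10 tested genes on either side of the locus, such as Hdac3, 0 were called at NK_TP2 in either pair (backgrounds 6.41% and 2.75%) by edgeR or DESeq2, with 0 and 5 at an unadjusted p under 0.05.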

How the data were processed

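The authors processed the ATAC-seq reads with a Nextflow pipeline that aligned them to GRCm38 with STAR, marked duplicates with Picard 2.27.4, called broad peaks per library with MACS2 2.2.7.1 and merged them into consensus peaks annotated with HOMER. The deposited counts are read pairs per consensus peak from featureCounts 2.0.1, not normalized, and a pair overlapping several peaks can be counted in each. The deposited broad-peak files give −log10 q per peak, with a lowest value of 1.00007, and were used only to mark in which libraries a consensus peak had been called (at least 1 base of overlap).

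Counts were tested with edgeR 4.0.16 (quasi-likelihood, robust, TMM) in R 4.3.3 over all peaks that passed filterByExpr and were called as broad in each replicate of 1 or more of the groups fitted, which left 48997 peaks in A/B, 55461 in C/D, 58886 in both pairs and 49125 in B-ALL alone. Combination of line and experiment was an additive term. P-values were adjusted by Benjamini-Hochberg over all tested peaks, and calls needed an adjusted p of at most 0.05 and a log2 difference of at least 0.58 in size. SE was computed from the test statistic. Alternatives were DESeq2 1.42.0 size factors and test, a loess offset, no or stricter peak filters, start-site peaks only, a replicate block, and each replicate left out. The fits were tested on simulated data. Depth was 3083547 to 13580746 counts per library, which leaves peaks of few CPM with few counts.

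Samples were grouped by their labels. Named peaks were the Pcdhac1 peak, those called in a tested comparison, those past the thresholds in A/B at NK_TP2, the 5 highest in mean CPM, and those nearest Pcdhac2, Slc25a2 and Taf7. The members and gene lists were chosen with earlier results of these data known. GENCODE M21 gives Pcdha11 to 2 gene models, and read-through models spanning the clusters were left out. The blacklist is described as one of GRCh38, and its use was not checked here.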

Additional observations from a re-analysis of the deposited data

Results flagged for a closer look

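The effect of NK cells at NK_TP1 differed between A/B and C/D past the call thresholds at 2 peaks of the locus, in the edgeR interaction fit over all tested peaks. At Pcdhac1 (Interval_120135) the A/B effect minus the C/D effect was -0.58 on the log2 scale, with -0.38 in A/B, lower in 6 of 6 combinations, and 0.21 in C/D, higher in 6 of 8. It rests on the A/B alone libraries that chose the locus, so it is a description, and it fell short of the thresholds without replicate 2 (-0.49). At Pcdhgb5 (Interval_120195) it was 0.79, with 0.39 in A/B, higher in 5 of 6 combinations, and ratios of 0.535 to 1.24 in C/D, lower in 7 of 8 combinations at levels of 2.00 CPM or less. That peak entered the fit only through A/B, where it is high, and its call was lost with any 1 replicate left out (0.72 to 0.76) and without the broad-peak filter (0.67).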

How the results depend on the processing

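Across the alternatives, 167 counts of called members kept their size and 21 moved, and no log2 value changed sign. Without the broad-peak filter the locus gained 1 member called higher at NK_TP1 in A/B, 1 at NK_TP1 in C/D, 1 at NK_TP2 in C/D, and 1 higher and 3 lower at NK_TP2 against NK_TP1 in C/D. That setting left 0 called higher between the pairs at NK_TP1, 7 called lower between the pairs alone and 2 lower in A/B at NK_TP2 against NK_TP1. Requiring a broad peak in every library left 2 members tested in A/B, without Pcdhac1, and 0 called. Leaving out each replicate in turn gave counts of members called higher of 0 to 1 at NK_TP1 in either pair and of 0 to 1 in C/D at NK_TP2 against alone and against NK_TP1, where 0 to 2 were called lower. It gave 0 to 1 higher and 0 to 1 lower between the pairs at NK_TP1 and 1 to 3 higher at NK_TP2. The Pcdhac1 difference between the pairs at NK_TP1 ranged from -0.49 without replicate 2, short of the fold threshold, to -0.68 without replicate 3. The Pcdhgb5 difference was 0.72 to 0.76 with a replicate left out and 0.67 without the broad-peak filter, not called in any of these 4 fits. Pcdhgb8 alone was -0.48 without that filter and -0.44 without replicate 1, Taf7 was 0.58 at NK_TP1 in A/B without replicate 2, and in C/D at NK_TP2 against NK_TP1 it was -0.62 both without the filter and without replicate 1. The causes were not tested. DESeq2 and the loess offset were not run for the comparisons between lines.

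Samples with the same replicate number had deviations that correlated at a median of 0.03 against -0.01 for different numbers, and 52 of 123 samples were most like their own number, so the numbers were not taken as pairs. With the replicate block, Pcdhac1 was -0.38 at NK_TP1 in A/B and 0.47 at NK_TP2 in C/D, and no count of calls moved. Peaks of a few CPM rest on few counts, and 97 peaks were not tested in the fits reported, though some entered without the broad-peak filter.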
